A study of Mus musculus with 16 samples.

Results

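Of 1205 human miRNAs on the array, 5 had the highest mean probe signal in extracellular RNA of HCT116, a human colorectal carcinoma cell line. In order of signal they were hsa-miR-4281 and hsa-miR-762, then hsa-miR-1225-5p with hsa-miR-1207-5p close behind it, and last hsa-miR-1202, and the prefix hsa (human) is left out from here on. They were chosen by the mean log2 of the background-subtracted probe signal over all 16 arrays, so their brightness and their order are a description and carry no test. Differences between doses were not used in the choice.

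RNA came from the culture supernatant, collected 72 h after high-dose-rate X-rays, with doses of 0, 2, 6 or 10 Gy, from cells kept in RPMI1640 medium with 10% fetal bovine serum. The 0 Gy cultures were the unirradiated controls of the same line, and no group carried a further treatment. Each dose had 4 independent cultures with 1 array each, and 100 ng of RNA was labelled with Cy3. The labels name the organism as mouse, but the line is human and the array's probes are for human miRNAs, and the values were read as human. Equal amounts of RNA were labelled, so the data show the make-up of the extracellular RNA and not its amount per cell, and release by fewer cells cannot be told apart from less RNA per cell. No array of medium and serum without cells was analysed here, so the part of bovine serum RNA in any signal was not tested.

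Extracellular miRNAs are small RNAs that leave cells in vesicles, bound to Argonaute proteins or in lipoprotein particles, and they persist in medium because these carriers protect them from nucleases. Inside a cell a miRNA guides Argonaute to messenger RNAs that pair with its seed, the stretch near its 5′ end. miR-1225-5p is made from a short intron of PKD1, the polycystin-1 gene, that is released by splicing and does not need Drosha (a mirtron). miR-1207-5p comes from the PVT1 long non-coding RNA locus and was reported to target TERT, the catalytic subunit of telomerase. miR-1202 is known as a primate-specific miRNA that regulates GRM4, a glutamate receptor in brain. miR-762 has been studied in the innate defence of corneal epithelial cells. miR-1225-3p and miR-1207-3p, the opposite arms of the same hairpins, were much dimmer. Probes of miR-1225-3p were detected on 16 arrays at signals of 57.1 to 136, and those of miR-1207-3p on 8 arrays.

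Mature sequences are shown for mouse namesakes of miR-762 and of miRNAs named below as nearest in brightness or in pattern, with their seeds. They are mouse sequences from RefSeq (GRCm38.p6), since human miRNA sequences were not used here. The array's probes are for human miRNAs, whose sequences may differ from these. Of 24 names looked up, 6 had a mouse namesake, and of the 5 brightest miRNAs this was miR-762 alone. A check of the G and C content of the 5 was therefore void, and whether all 5 are rich in G and C was not tested. Capitals mark the seed (bases 2 to 8), and each sequence runs 5′ to 3′.
miR-762: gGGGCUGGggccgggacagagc
miR-188-5p: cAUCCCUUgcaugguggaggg
miR-150-3p: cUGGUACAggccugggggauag
miR-1224-5p: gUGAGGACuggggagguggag
miR-134-5p: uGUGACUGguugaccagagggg
miR-671-5p: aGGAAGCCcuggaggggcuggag
The 6 mouse miRNAs had 6 different seeds. Mouse miR-762 lies at chr7:127708534-127708555 on the + strand, and 18 of its 22 bases are G or C, which is 81.8%. Of 1679 mouse mature miRNAs in the table, 18 (1.07%) had a G and C share at or above that, and the median was 52.2%. Mouse miR-188-5p lies at chrX:7248031-7248051 (- strand) with 61.9% G and C in mouse. Mouse miR-150-3p lies at chr7:45121798-45121819 (+ strand), miR-1224-5p at chr16:20604452-20604472 (+ strand), miR-134-5p at chr12:109734145-109734166 (+ strand) and miR-671-5p at chr5:24592132-24592154 (+ strand).

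Arrays detected between 242 and 358 human miRNAs, and no spot was saturated. The 0 and 2 Gy arrays were on one slide and the 6 and 10 Gy arrays on the other, so 6 or 10 Gy against 0 Gy and slide cannot be told apart, whereas 2 against 0 Gy and 10 against 6 Gy lie within a slide. The array labelled 0 Gy replicate 3 was the highest of its dose for all 5 miRNAs, and results are given with and without it. It was far from the others for miR-1202 (4.77 against 3.89 to 4.01, log2 of scaled signal). For miR-762 it was close to replicate 1 (5.88 against 5.83). The label of a colorectal epithelial line was checked with 7 epithelial and carcinoma miRNAs. All 7 were detected on at least 1 array. miR-92a-3p, of the miR-17-92 cluster, was detected on 16, and miR-200c-3p and miR-141-3p, which mark epithelial cells, on 15 each. miR-17-5p was on 15, miR-21-5p and miR-31-5p on 11 each, and miR-200b-3p on 8. Of miRNAs of other cell types, 1 of 3 of red cells was detected (miR-486-5p, on 16 arrays, with the defining miR-451a on 0). Of white cells and platelets 1 of 5 was (miR-155-5p on 16, miR-223-3p on 0). Of muscle 3 of 4 were (miR-133a-3p and miR-206 on 16 each, miR-133b on 13, miR-1-3p on 0), and the liver miRNA miR-122-5p was on 4 arrays. Some miRNAs of other cell types were thus detected on more arrays than most of the epithelial ones, so the check does not settle the label. Of 6 tested epithelial miRNAs, 1 was called lower at 2 and at 6 Gy against 0 Gy, miR-21-5p (limma, adjusted p = 0.0225 and 0.0304), where 6.71% and 13.4% of all tested miRNAs were called lower, and 0 were called at 10 Gy. miR-21-5p was detected on 1 of 4 arrays at 2 Gy and 2 of 4 at 6 Gy, against 4 of 4 at 0 Gy, and lay at the floor on 5 of the 16 arrays, so the size of its difference depends on that floor. The median difference of the 6 was -1.29, -1.88 and -0.68 at 2, 6 and 10 Gy, against 0.03, 0.12 and -0.02 for all tested miRNAs, and 5 of the 6 lay at the floor on 1 or more arrays. miR-155-5p was called higher at 6 Gy (0.31, adjusted p = 0.0407), and no tested red cell or muscle miRNA was called at any dose. The part of these in the results below was not tested.

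miR-4281 was the brightest human miRNA on all 16 arrays, with a geometric mean signal of 63640 intensity units, and miR-762 was the next on all 16, with 28459. miR-1225-5p (13748 units) ranked 3 or 4 and miR-1207-5p (13100 units) ranked 3 to 5, so these 2 changed places between arrays. miR-1202 (9530 units) ranked 5 or 6 and was among the top 5 on 6 of the 16 arrays. The miRNA just outside the choice, miR-188-5p, had 8944 units, which on the log2 scale is a mean of 13.13 against 13.22 for miR-1202. It was among the top 5 on 8 arrays, miR-320c on 1 and miR-494-3p on 1. The next 4 were miR-320c (7411 units), miR-3665 (5414), miR-638 (5147) and miR-1915-3p (4950). Signals of different probes are set by how each probe binds and labels as well as by amount, so this is an order of probe brightness and not of molecule number. Taken by the brightest probe of each miRNA instead of the mean, miR-1202 ranked 7 and the other 4 kept their places.

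The 5 miRNAs together held about as much signal as all other human miRNAs. Their share of the summed total signal of all human miRNAs was 44.7, 42.6, 50.4 and 44.9% on the 0 Gy arrays (replicates 1 to 4), 52.0, 47.2, 53.5 and 52.5% at 2 Gy, 51.0, 48.5, 54.2 and 52.1% at 6 Gy, and 49.0, 45.9, 48.2 and 52.1% at 10 Gy. Means were 45.6 ± 3.31, 51.3 ± 2.80, 51.5 ± 2.37 and 48.8 ± 2.54% at 0, 2, 6 and 10 Gy (SD, n = 4 each), and the ranges of all doses overlapped, with 0 Gy replicate 3 above the other 0 Gy arrays. miR-4281 alone held 21.0 ± 3.11, 25.1 ± 4.26, 25.4 ± 3.02 and 22.4 ± 2.54% in the same order. miR-762 held a steadier share of 12.3 ± 1.05, 12.4 ± 1.19, 12.2 ± 1.24 and 13.0 ± 0.0622%. The other three, miR-1225-5p, then miR-1207-5p, and then miR-1202, each held between 2.83 and 5.57% on any array.

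**Figure D1:**
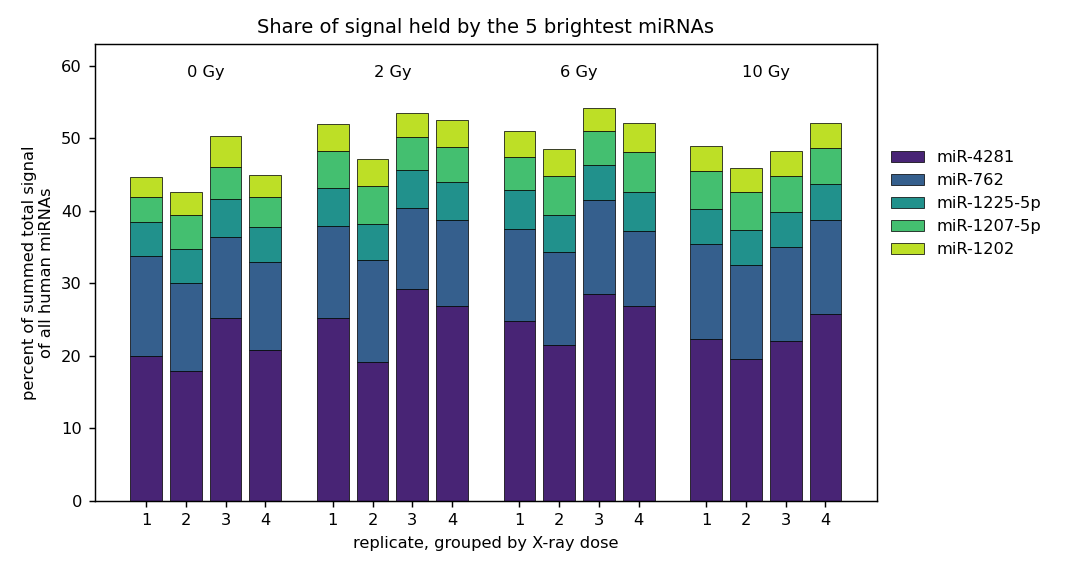
Percent of the summed total signal of the 1205 human miRNAs on the array held by each of the 5 brightest miRNAs (stacked bars, 1 bar per array, 4 arrays per X-ray dose). The 5 together held from 42.6% to 54.2%, and miR-4281 was the largest part on every array.

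For the comparison of doses, signals were scaled to the 75th percentile, per array, of the 518 probes that all arrays detected, and levels below are log2 of this scaled signal. The 5 levels were 3.89 or higher on every array, and none was near the floor of -4.60 set for dim probes.

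miR-4281 had levels of 6.71, 6.47, 7.34 and 6.82 at 0 Gy, 7.31, 6.63, 7.54 and 7.39 at 2 Gy, 7.21, 6.95, 7.49 and 7.48 at 6 Gy, and 7.04, 6.66, 6.98 and 7.32 at 10 Gy (replicates 1 to 4). The doses overlapped, since 0 Gy replicate 3 lay among the irradiated arrays and 2 Gy replicate 2 among the 0 Gy arrays. Means were 6.84 ± 0.36, 7.22 ± 0.40, 7.28 ± 0.26 and 6.998 ± 0.270 at 0, 2, 6 and 10 Gy (SD, n = 4).

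miR-762 had levels of 5.83, 5.65, 5.88 and 5.74 at 0 Gy, 6.09, 5.95, 5.92 and 5.98 at 2 Gy, 6.01, 5.97, 6.09 and 5.88 at 6 Gy, and 6.01, 5.78, 5.93 and 6.03 at 10 Gy. Every 2 Gy and every 6 Gy array lay above every 0 Gy array, at 6 Gy only narrowly, and 10 Gy replicate 2 lay within the 0 Gy range. Means were 5.78 ± 0.10, 5.99 ± 0.07, 5.99 ± 0.09 and 5.94 ± 0.11.

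miR-1225-5p had levels of 4.63, 4.55, 5.06 and 4.73 at 0 Gy, 5.04, 4.70, 5.05 and 5.04 at 2 Gy, 4.98, 4.90, 4.94 and 5.14 at 6 Gy, and 4.85, 4.61, 4.78 and 4.95 at 10 Gy. At 2 Gy replicates 1, 3 and 4 lay close together and replicate 2 lay well below them, and the 0 Gy replicate 3 value was higher than all but 1 of the irradiated arrays. Means were 4.74 ± 0.23, 4.96 ± 0.17, 4.99 ± 0.11 and 4.80 ± 0.14.

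miR-1207-5p had levels of 4.16, 4.52, 4.82 and 4.51 at 0 Gy, 5.02, 4.75, 4.85 and 4.93 at 2 Gy, 4.77, 4.94, 4.88 and 5.20 at 6 Gy, and 4.94, 4.76, 4.83 and 4.96 at 10 Gy. Replicates 1, 2 and 4 of 0 Gy were the 3 lowest of all 16 arrays, and only 0 Gy replicate 3 overlapped with the irradiated arrays. Means were 4.50 ± 0.27, 4.89 ± 0.12, 4.95 ± 0.18 and 4.87 ± 0.09.

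miR-1202 had levels of 3.89, 4.01, 4.77 and 4.00 at 0 Gy, 4.55, 4.30, 4.41 and 4.50 at 2 Gy, 4.41, 4.42, 4.35 and 4.72 at 6 Gy, and 4.36, 4.11, 4.30 and 4.39 at 10 Gy. Again 0 Gy replicates 1, 2 and 4 were the 3 lowest arrays, while 0 Gy replicate 3 was the highest of all 16. Means were 4.17 ± 0.40, 4.44 ± 0.11, 4.47 ± 0.17 and 4.29 ± 0.13.

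**Figure D2:**
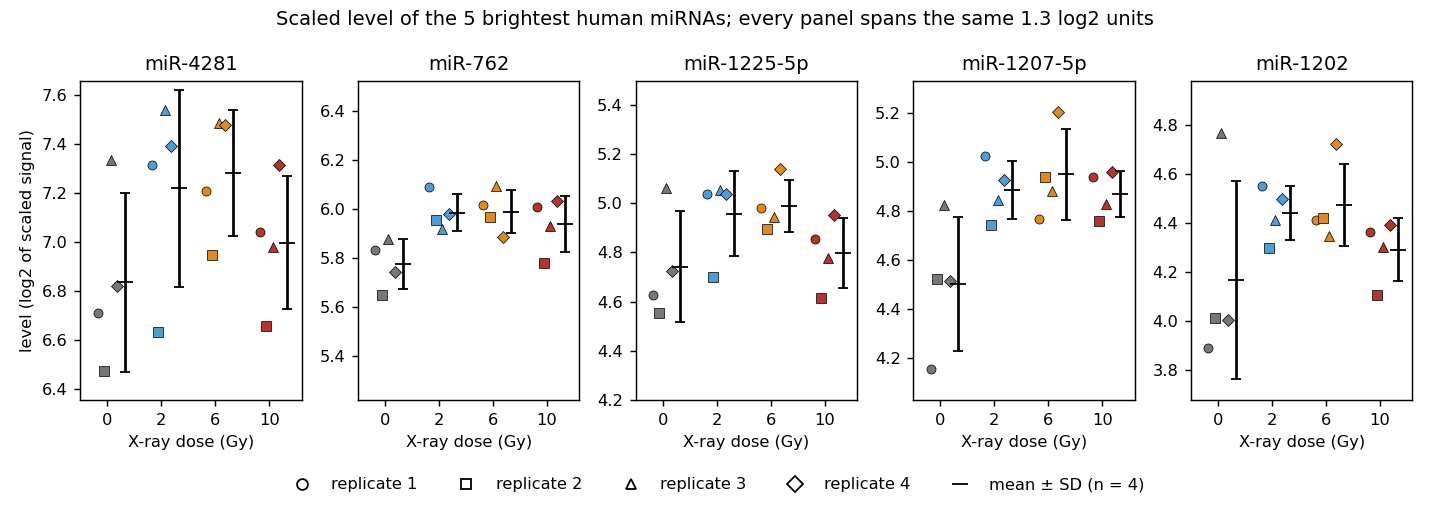
Level of each of the 5 miRNAs (log2 of scaled signal) on every array by X-ray dose in Gy, with the marker shape giving the replicate and the bars the mean ± SD (n = 4). One 0 Gy array, replicate 3, was the highest 0 Gy array for all 5 miRNAs, and one 10 Gy array, replicate 2, was the lowest of its dose for all 5.

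The first question was whether the bright miRNAs differed between irradiated and unirradiated cultures. At 2 Gy against 0 Gy, 0 of the 5 passed limma's test with Benjamini-Hochberg adjustment over all 283 tested miRNAs at 0.05, where 12.7% of the tested miRNAs did (36 of 283). miR-1207-5p differed by 0.38 ± 0.13 (SE, adjusted p = 0.0607, 95% interval 0.10 to 0.66), and miR-762 by 0.21 ± 0.08 (adjusted p = 0.0972). miR-4281 differed by 0.38 ± 0.22, with an interval of -0.09 to 0.86 (adjusted p = 0.215), and miR-1225-5p (0.22) and miR-1202 (0.27) had adjusted p-values of 0.213 and 0.230. At an unadjusted p under 0.05 there were 2 of the 5, miR-1207-5p and miR-762, where 35% of tested miRNAs were. All 5 differences were above 0 (53% of tested miRNAs), although after quantile normalization miR-762 (-0.02) and miR-1225-5p (-0.08) were not. Their median was 0.27, against 0.03 for all tested miRNAs. Groups without overlap, the 2 Gy arrays being higher, were found for 1 of the 5, miR-762 (7.07% of tested miRNAs).

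At 6 Gy against 0 Gy, 1 of the 5 passed the same test, miR-1207-5p, which was higher by 0.45 ± 0.13 (SE, adjusted p = 0.0407, 95% interval 0.17 to 0.73), and 19.4% of the tested miRNAs passed (55 of 283, with 6.01% called higher). miR-762 differed by 0.21 ± 0.08 (adjusted p = 0.0671), miR-4281 by 0.44 ± 0.22 (0.140 adjusted), miR-1225-5p by 0.25 ± 0.12 (0.139 adjusted) and miR-1202 by 0.31 ± 0.16 (0.160 adjusted). All 5 differences were above 0, where 56.2% of tested miRNAs were, although after quantile normalization miR-762 (-0.10) and miR-1225-5p (-0.06) were not. Their median was 0.31, against 0.12 for all tested miRNAs. The groups did not overlap for miR-762 (5.65% of tested miRNAs were higher without overlap). The call of miR-1207-5p was past the threshold in 5 of the 16 fits that left out 1 array, in which its difference ran from 0.33 to 0.55 and its adjusted p from 0.00239 to 0.112 (limma). These 5 were the fits without 0 Gy replicate 3, 2 Gy replicate 2, 6 Gy replicate 2, 10 Gy replicate 2 or 10 Gy replicate 4, and the call was lost without any 1 of the other 11 arrays.

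At 10 Gy against 0 Gy, 0 of the 5 passed, where 0.353% of the tested miRNAs did (1 of 283). miR-1207-5p differed by 0.37 ± 0.13 (SE, adjusted p = 0.123, unadjusted p = 0.0139) and was the only 1 of the 5 under an unadjusted 0.05, where 22.3% of tested miRNAs were. miR-762 differed by 0.16 ± 0.08 (adjusted p = 0.271), miR-4281 by 0.16 ± 0.22 (0.675 adjusted), miR-1202 by 0.12 ± 0.16 (0.661 adjusted) and miR-1225-5p by 0.06 ± 0.12 (0.812 adjusted). Groups without overlap were found for 0 of the 5, where 9.89% of tested miRNAs were higher at 10 Gy without overlap. The interval for miR-1225-5p, -0.21 to 0.32, leaves room for a change of either sign, and that for miR-4281 ran from -0.31 to 0.64. All 5 were above 0 (47.3% of tested miRNAs), with a median of 0.16 against -0.02 for all tested, but without scaling miR-4281 (-0.08), miR-762 (-0.08), miR-1225-5p (-0.18) and miR-1202 (-0.11) were below 0. These 3 comparisons share the 4 arrays of 0 Gy, so a low or high 0 Gy array moves all of them at once.

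At 10 Gy against 6 Gy, 0 of the 5 passed, as did 0% of tested miRNAs in the fit over all arrays, where 42 miRNAs had an unadjusted p under 0.05. All 5 differences were below 0, with 50.9% of tested miRNAs above 0, but after quantile normalization miR-762 (0.07) and miR-1207-5p (0.05) were above 0, as were miR-1202 (0.12) and miR-1207-5p (0.13) with the labelling control described below as a covariate. miR-4281 differed by -0.28 ± 0.22 (SE, adjusted p = 0.417), miR-1225-5p by -0.19 ± 0.12 (0.360 adjusted), miR-1202 by -0.18 ± 0.16 (0.460 adjusted), miR-1207-5p by -0.08 ± 0.13 (0.700 adjusted) and miR-762 by -0.05 ± 0.08 (0.689 adjusted). Same-numbered 10 and 6 Gy arrays deviated together (correlations of 0.23 to 0.72 in the 4 pairs), which does not establish that they were paired. In a fit of those 8 arrays with the replicate block, 19.4% of tested miRNAs were called (55 of 283), 0 of them among the 5, and miR-4281 came nearest (-0.28 ± 0.09, adjusted p = 0.0751).

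A steady change with dose was asked of the slope. Slopes of the 5 ran from 0.002 per Gy for miR-1225-5p to 0.029 per Gy for miR-1207-5p, whose interval was -0.001 to 0.060 (adjusted p = 0.412), and all 5 were above 0, where 48.1% of tested miRNAs were. Without scaling, the slopes of all but miR-1207-5p were below 0. After quantile normalization those of miR-762 (-0.004) and miR-1225-5p (-0.008) were. With slide as a block, a fit added after seeing the data, the slopes of miR-4281 (-0.018), miR-1225-5p (-0.017) and miR-1202 (-0.009) were below 0. On limma's test 0 of the 5 and 0% of tested miRNAs passed, with 36 miRNAs under an unadjusted 0.05. The moderated F test over the 4 doses also called 0 of the 5 and 0% of tested miRNAs (32.2% of tested miRNAs, 91 in number, and 1 of the 5 were under an unadjusted 0.05), and its smallest adjusted p among them was 0.103, for miR-1207-5p.

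Leaving out 0 Gy replicate 3 changed these calls. Without it, 317 miRNAs were tested. At 2 Gy 5 of the 5 were called higher, and at 6 Gy 5 of the 5, where 49.8% and 58.4% of the tested miRNAs were called. These shares and those below count calls in either direction, and the share called higher is not given here. miR-4281 was then 0.55 higher at 2 Gy and 0.61 higher at 6 Gy (limma, adjusted p = 0.0453 and 0.0259). miR-762 was 0.24 and 0.25 higher (0.0321 and 0.0265 adjusted), miR-1225-5p 0.32 and 0.35 higher (0.026 and 0.0146), miR-1207-5p 0.49 and 0.55 higher (0.00542 and 0.00239), and miR-1202 0.47 and 0.51 higher (0.00352 and 0.002). At 10 Gy, miR-1207-5p was 0.47 higher (adjusted p = 0.0123) and miR-1202 0.32 higher (adjusted p = 0.0354) without that array, where 29% of tested miRNAs were called. Leaving out 2 Gy replicate 2 gave 2 calls at 2 Gy (30.7% of tested miRNAs), miR-4281 (0.58, adjusted p = 0.0444) and miR-1207-5p (0.43, adjusted p = 0.0375), and leaving out 6 Gy replicate 4 gave 1 call at 2 Gy (20.8%), miR-1207-5p (0.40, adjusted p = 0.0453). The differences of all 5 at 2 and 6 Gy stayed above 0 in each of the 16 fits that left out 1 array.

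**Figure D3:**
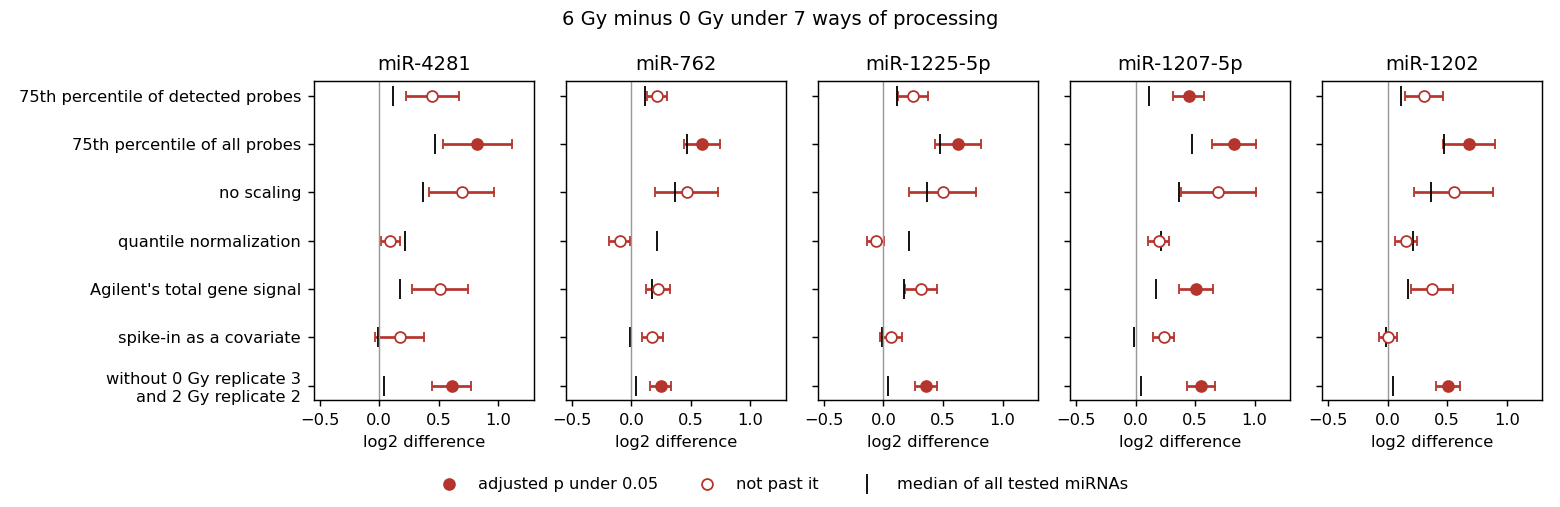
Difference of 6 Gy minus 0 Gy in log2 units for each of the 5 miRNAs under 7 ways of processing (points with SE bars, filled where the adjusted p was under 0.05), with the median difference of all tested miRNAs as a vertical tick. miR-1207-5p was called in 4 of the 7. All 5 were called when arrays were scaled by all probes, where 177 of 283 tested miRNAs were called. They were also all called when 0 Gy replicate 3 and 2 Gy replicate 2 were left out. Without 0 Gy replicate 3 alone, 58.4% of tested miRNAs (185 of 317) were called, so nothing particular to the 5 is read from this. After quantile normalization the differences of miR-762 and miR-1225-5p lay below 0.

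A technical measure was set beside the levels of these miRNAs, the signal of the probes for dmr_285 and dmr_31a. These are control probes for RNAs that Agilent supplies to be added at the labelling step, and the labels do not say whether or in what amount they were added. Their log2 signal (signals under 1 set to 1) was 9.34, 7.49, 0.92 and 8.50 at 0 Gy, 1.86, 6.11, 5.54 and 3.78 at 2 Gy, 3.24, 4.31, 5.20 and 0 at 6 Gy, and 5.98, 8.19, 6.78 and 5.23 at 10 Gy. Means were 6.56 ± 3.84, 4.32 ± 1.92, 3.19 ± 2.27 and 6.55 ± 1.27 (SD, n = 4 each). Arrays on which this control was dim tended to be those on which the 5 miRNAs were high. 0 Gy replicate 3 had the lowest control signal of its dose and the highest level of all 5 miRNAs. 10 Gy replicate 2 had the highest control signal of its dose and the lowest level of all 5, and 10 Gy replicate 4 had the lowest control signal of its dose and the highest level of all 5. At 6 Gy the order was mixed. 6 Gy replicate 4, with the lowest control signal of the 16 arrays, was the highest of its dose for 3 of the 5 and the lowest for miR-762. 6 Gy replicate 3, with the highest control signal of its dose, was the highest for 2 of the 5, miR-4281 and miR-762, and the lowest for miR-1202.

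The relation was examined after the data had been seen, for 5 miRNAs over 16 arrays, with permutation p-values (two-sided, 100000 resamples) adjusted over the 5. miR-1202 had Pearson's r = -0.95 (p = 1e-05, the smallest that these resamples can give, adjusted 5e-05) and Spearman's rho = -0.95 (p = 1e-05). miR-1225-5p had r = -0.87 (permutation p = 2e-05, adjusted 5e-05) and rho = -0.88 (p = 3e-05). For both, r was below that of the other 3. miR-1207-5p had r = -0.76 (permutation p = 0.00052, adjusted 0.000867) and rho = -0.72 (p = 0.00206). miR-4281 had r = -0.71 (permutation p = 0.00217, adjusted 0.00271) and rho = -0.69 (p = 0.00424). The weakest relation was that of miR-762, whose r of -0.47 did not pass (permutation p = 0.0646, adjusted 0.0646) and rho was -0.52 (p = 0.0415). When the 2 arrays with control signals farthest from the median were left out, r was -0.92, -0.84, -0.78, -0.68 and -0.77 for miR-1202, miR-1225-5p, miR-1207-5p, miR-4281 and miR-762.

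Within the slide of 0 and 2 Gy (8 arrays), miR-1202 ranked in exactly the reverse order of the control (rho = -1, r = -0.97, exact permutation p = 7.44e-05 for r), and within the slide of 6 and 10 Gy r was -0.96 (exact permutation p = 0.000248). miR-1225-5p had r = -0.83 and -0.94 in the 2 slides, miR-1207-5p -0.85 and -0.75, and miR-4281 -0.71 and -0.70. miR-762 had r = -0.65 and -0.15, with exact permutation p-values of 0.0817 and 0.709. After each dose's mean was taken off, r was -0.96 for miR-1202, -0.82 for miR-1225-5p, -0.86 for miR-1207-5p, -0.62 for miR-4281 and -0.31 for miR-762. Over all 283 tested miRNAs the median r was -0.33 and 58.0% were below 0. The r of miR-1202 was the lowest of all of them, 15 of the 283 (5.3%) were at or below that of miR-1225-5p, 36 (12.7%) at or below that of miR-1207-5p, 46 (16.3%) at or below that of miR-4281 and 120 (42.4%) at or below that of miR-762.

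Before scaling, r with the control was -0.90 for miR-4281, -0.79 for miR-1202, -0.77 for miR-1225-5p, -0.73 for miR-1207-5p and -0.60 for miR-762, the same sign as after it. The log2 of the 75th percentile used for scaling itself had r = -0.46 with the control. Unscaled values hold this brightness of the whole array as well, so they are no separate evidence about the 5. In all, r was computed on 6 scales. With scaling over all probes it ran from -0.87 (miR-1202) to -0.59 (miR-762) and with Agilent's total gene signal from -0.92 (miR-1202) to -0.39 (miR-762), below 0 for all 5 on both. For miR-762 the sign turned on the other 2, with r = 0.69 after quantile normalization and 0.59 for its share of the total signal. After quantile normalization r was -0.01 for miR-1207-5p and -0.12 for miR-1225-5p, and for the other 4 the r of the share ran from -0.87 to -0.45. With the control as a covariate in the fit, the 6 Gy difference was 0.24 ± 0.09 for miR-1207-5p (limma, adjusted p = 0.178, against 0.45 without the covariate), 0.17 ± 0.21 for miR-4281 (0.614 adjusted, against 0.44), 0.17 ± 0.09 for miR-762 (0.242 adjusted, against 0.21), 0.06 ± 0.09 for miR-1225-5p (0.688 adjusted, against 0.25) and 0.003 ± 0.07 for miR-1202 (0.982 adjusted, against 0.31). In that fit 0 of the 5 were called at 2 Gy (13.4% of tested miRNAs) or 6 Gy (1.06%). At 10 Gy 1 of the 5 was called, miR-1207-5p (0.37 ± 0.08, adjusted p = 0.01), with 16.6% of tested miRNAs. The part of labelling in the dose differences was not tested.

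**Figure D4:**
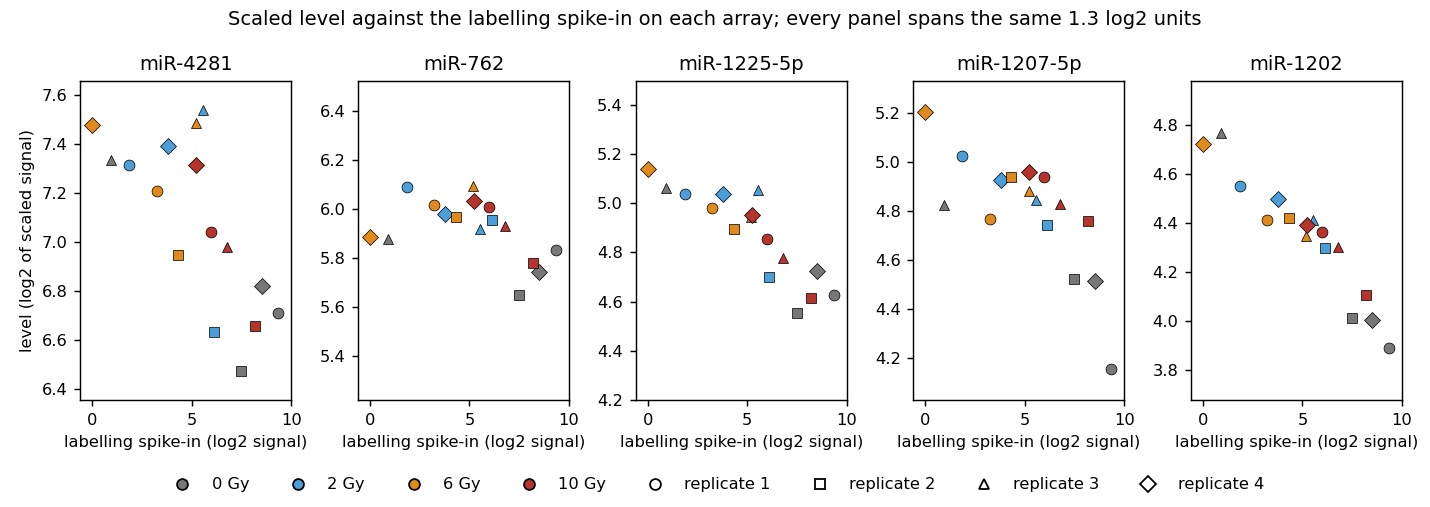
Level of each of the 5 miRNAs (log2 of scaled signal) against the log2 signal of the labelling control probes on the same array, with colour giving the X-ray dose and marker shape the replicate (16 arrays). miR-1202 fell along a line with r = -0.95, while miR-762 had r = -0.47.

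The 2 probes of each miRNA were compared, since both read the same miRNA on the same array. Spots of a probe varied little, with a median coefficient of variation between 3.32% (miR-4281) and 4.77% (miR-1225-5p). The brighter probe was 1.02-fold the dimmer for miR-4281, 1.15-fold for miR-1225-5p, 1.1-fold for miR-1207-5p and 1.01-fold for miR-1202, and these ratios varied across the 16 arrays with an SD of 0.01 to 0.04 on the log2 scale. For miR-762 the ratio was 3.45-fold on average and ran from 3.08-fold to 4.06-fold, an SD of 0.12 in log2. The log2 ratio of miR-762 was 2.02, 1.81, 1.85 and 1.91 at 0 Gy, 1.70, 1.64, 1.72 and 1.66 at 2 Gy, 1.66, 1.70, 1.80 and 1.62 at 6 Gy, and 1.80, 1.89, 1.89 and 1.89 at 10 Gy. All 2 and 6 Gy arrays had a lower ratio than all 0 Gy arrays, so the doses that separated in level separated in the ratio as well. The share of all tested miRNAs that separated in ratio is not given here. Over the 16 arrays the ratio of miR-762 rose with the labelling control (Spearman's rho = 0.68, given without a test). The control averaged 4.32 and 3.19 at 2 and 6 Gy, and 6.56 and 6.55 at 0 and 10 Gy. 0 Gy replicate 3 went the other way, with a control of 0.92 and a ratio of 1.85. For the other miRNAs rho ran from -0.51 (miR-1225-5p) to 0.31 (miR-1202). The part of labelling in the ratio was not tested. The difference of miR-762 at 2 Gy against 0 Gy was 0.10 by its brighter probe and 0.32 by its dimmer probe, and at 6 Gy against 0 Gy 0.11 and 0.32. At 10 Gy against 0 Gy the probes gave 0.15 and 0.18, and at 10 Gy against 6 Gy 0.04 and -0.14, which differ in sign. The size of any change in miR-762 at 2 and 6 Gy therefore depended on the probe.

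**Figure D5:**
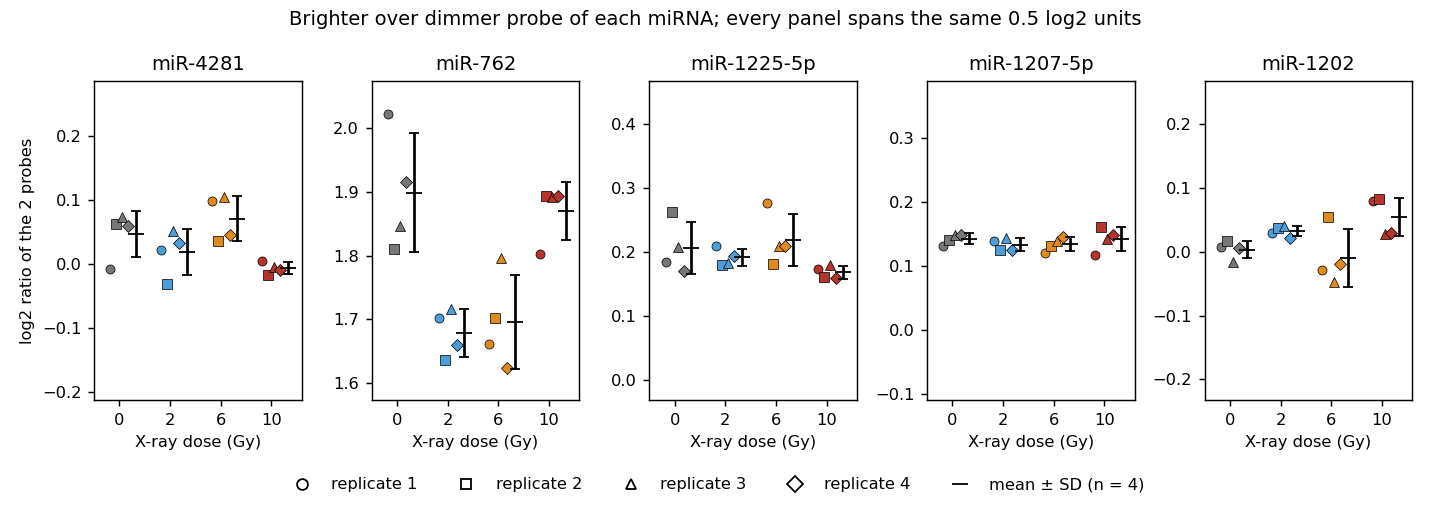
Log2 ratio of the brighter over the dimmer probe of each miRNA on every array by X-ray dose in Gy, with the marker shape giving the replicate and the bars the mean ± SD (n = 4). The ratio of miR-762 was lower at 2 and 6 Gy (1.62 to 1.80) than at 0 Gy (1.81 to 2.02), and the other 4 ratios varied less.

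The spread among cultures of one dose is given for each of the 5 as a description, with no test between them. The within-dose SD of miR-762 was 0.09, the place 13 from the smallest among the 283 tested miRNAs, whose median was 0.23. It was 0.17 for miR-1225-5p (place 67), 0.18 for miR-1207-5p (place 83), 0.23 for miR-1202 (place 145) and 0.33 for miR-4281 (place 205). The brightest of the 5 was the most variable of them.

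Likeness of pattern was measured as the root mean square difference of centred levels over 16 arrays, with smaller values for more alike patterns, and the 3 nearest other tested miRNAs were named for each. For miR-4281 these were miR-557 (0.135), miR-150-3p (0.151) and miR-4327 (0.158), with a median of 0.346 over the 278 others. For miR-762 they were miR-4322 (0.078), miR-3188 (0.083) and miR-1469 (0.1), with a median of 0.249. The nearest miRNA to miR-762 was thus closer to it than the nearest to miR-4281. This measure also tends to be smaller for miRNAs that vary less, and the within-dose SD was 0.09 for miR-762 and 0.33 for miR-4281. The gap is therefore not read as a closer likeness of pattern. For miR-1225-5p they were miR-3180-3p (0.084), miR-1224-5p (0.086) and miR-3188 (0.088), with a median of 0.255. For miR-1207-5p they were miR-3141 (0.071), miR-601 (0.083) and miR-134-5p (0.088), with a median of 0.297. For miR-1202 they were miR-4270 (0.065), miR-671-5p (0.074) and miR-3196 (0.089), with a median of 0.270. Among the 5 themselves the nearest pair was miR-1225-5p and miR-1202 (0.109) and the farthest miR-4281 and miR-762 (0.273). For miR-4281, 74 of the others were nearer than miR-762, so the 2 brightest miRNAs were not each other's nearest in pattern.

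A list of 26 names on the array, put together by hand as rich in G and C, was set beside the 5, and 24 were tested. Human sequences were not used, so the G and C content of the listed miRNAs was not checked. In mouse, miR-188-5p had 61.9% and miR-671-5p 69.6% G and C. At 2 Gy against 0 Gy 3 of the 24 were called higher and 0 lower (12.7% of all tested miRNAs were called, 6.01% higher), namely miR-149-3p (0.63 ± 0.12, adjusted p = 0.019), miR-188-5p (0.45 ± 0.13, 0.0333 adjusted) and miR-4271 (0.38 ± 0.10, 0.0283 adjusted). At 6 Gy against 0 Gy, where 6.01% of all tested miRNAs were called higher and 13.4% lower, 2 of the 24 were called higher, miR-3195 (0.62 ± 0.19, adjusted p = 0.0407) and miR-3610 (0.36 ± 0.09, 0.0304 adjusted), and 2 lower, miR-663a (-0.38 ± 0.12, 0.0432 adjusted) and miR-574-5p (-0.69 ± 0.16, 0.0304 adjusted). Nothing particular to the list is read from these counts. At 10 Gy against 0 Gy 1 was called higher, miR-149-3p (0.63 ± 0.12, adjusted p = 0.0272), the 1 miRNA called there among all tested (0.353%). At 10 Gy against 6 Gy 0 were called. The median difference of the 24 was 0.13, 0.17 and 0.14 at 2, 6 and 10 Gy against 0 Gy, and -0.06 at 10 Gy against 6 Gy, against medians of 0.27, 0.31, 0.16 and -0.18 for the 5 brightest. miR-188-5p, the miRNA next in brightness after miR-1202, was called at 2 Gy, where 0 of the 5 brightest were. Its difference of 0.45 ± 0.13 was near that of miR-1207-5p (0.38 ± 0.13, limma, adjusted p = 0.0607), and the 2 were not tested against each other. At 6 Gy miR-1207-5p was called and miR-188-5p was not.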

How the data were processed

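Extracellular RNA of 16 HCT116 cultures was measured on single-colour Agilent miRNA arrays. Each deposited file held spot intensities from Agilent's Feature Extraction (version 11.5.1.1), which had subtracted the background and had not scaled arrays to each other, per the file headers. The files also held other values, namely flags for outlier, saturated and well-above-background spots, per the file headers. The genome build in the headers is hg19.

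Of 56044 spots per array, 2164 control spots and the spots flagged as outliers (3.27 to 4.90%) were removed, and the other spots were averaged by probe. Detection needed a share over 0.5 of a probe's spots flagged well above background. The 75th percentile of the 518 probes that every array detected served for scaling, then a floor of 0.0412 was set and log2 was taken. A human probe was kept if all 4 arrays of some dose detected it, and the kept probes of a miRNA were averaged. This gave 592 probes and 283 tested human miRNAs.

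Differences were fitted with limma 3.58.1 (R 4.3.3, files read with data.table, version 1.17.8) over all arrays with 1 mean per dose, adjusted by Benjamini-Hochberg at 0.05. Python 3.11.15 and matplotlib 3.10.9 were used for correlations and figures. The number of arrays, 4 per dose, limits the precision.

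The members and lists were chosen with earlier results of these data known. The text names the 5 members, the next 5 in brightness and the 3 nearest in pattern to each member. It also names miRNAs of the hand-made GC-rich list past the threshold (at most 2 rises and 2 falls per comparison). miR-4271, miR-494-3p, miR-21-5p and miR-155-5p were named after their values were seen. The normexp alternative used median spot intensities in place of the planned mean intensities, which the deposited files do not hold. The slide as a block and the 8-array fit of 10 and 6 Gy were added after seeing the data. So were the correlations with the labelling control, computed on 6 scales and for the ratio of the 2 probes. The 2 arrays left out together (0 Gy replicate 3 and 2 Gy replicate 2) were also chosen with earlier results known. Replicate numbers were checked by the correlation of deviations from the dose means. All 4 pairs of 10 and 6 Gy arrays were over 0.1 (0.23, 0.72, 0.44 and 0.67), and for no pair of doses with 0 Gy did all pairs pass. This does not establish that same-numbered arrays were paired. Replicates 1 and 2 of both doses lay in slide row 1 and replicates 3 and 4 in row 2. The part of slide position in these correlations was not tested. Other alternatives are given at the end.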

Additional observations from a re-analysis of the deposited data

Results flagged for a closer look

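Of 56 sets of 4 arrays checked for a single array far from the others, 3 were picked out, and chance alone picks out about 1 in 20. At 0 Gy, miR-1202 had 4.77 on replicate 3 and 3.89 to 4.01 on the other arrays, a gap of 0.857 of the whole range. At 2 Gy, miR-1225-5p had 4.70 on replicate 2 and 5.04 to 5.05 on the others, a gap of 0.956 of the range. At 10 Gy, the log2 ratio of the 2 probes of miR-762 was 1.80 on replicate 1 and 1.89 on the others, a gap of 0.985 of the range.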

How the results depend on the processing

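In all, 30 results were recomputed under 15 alternatives and with each of the 16 arrays left out. Of 390 values under the alternatives, 326 kept direction and side of the threshold, 33 passed it newly, 4 no longer passed and 27 changed sign. Of 480 values with an array left out the counts were 444, 17, 11 and 8. None of the values that changed sign was past the threshold on either side. The setting with no filter is not among these counts: 834 of its 1205 miRNAs (69.2%) sat at the floor with no variance, a state in which limma calls its own moderation unreliable, so its tests say nothing about stability.

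The count of the 5 called at 2 Gy (0) was 5 with scaling over all probes (129 of 283 tested miRNAs called). Without 0 Gy replicate 3 and 2 Gy replicate 2 it was 5 (187 of 317 called). It was 1 each with the replicate block (miR-4281, 68 of 283 called), the slide row as a block (54 of 283) and Agilent's total gene signal (45 of 283). With 1 array left out it was 0 to 5. The count at 6 Gy (1) was 5 with scaling over all probes (177 of 283 called), 5 without both arrays and 2 with the replicate block (75 of 283). These 2 were miR-4281 (limma, adjusted p = 0.0288) and miR-1207-5p. The count was 0 with no scaling (0 of 283 called), quantile normalization (127 of 283) and the labelling control (spike-in) as a covariate (3 of 283). It was also 0 with only the arrays of the doses compared (0 of 283), and 0 to 5 with 1 array left out. The unreliable test with no filter also gave 0. The count at 10 Gy (0) was 1 with the spike-in covariate (47 of 283 called) and 2 without both arrays, and 0 to 2 with 1 array left out. For any dose difference (0) it was 1 with the spike-in covariate, 3 with scaling over all probes and 4 without both arrays, and 0 to 3 with 1 array left out. Counts over all tested miRNAs are not given here for 6 and 10 Gy without both arrays or for any dose difference. Nothing particular to the 5 is read from these counts. The cause of these shifts was not tested. Counts for 10 Gy against 6 Gy and for the slope were 0 in each alternative.

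The replicate block is no pairing by design: of 24 same-numbered pairs of arrays 14 correlated over 0.1, from -0.76 to 0.87. It raised the calls over all miRNAs at 2 Gy to 68, against 36 without it. Another scaling moved the median difference of all tested miRNAs at 2, 6 and 10 Gy against 0 Gy to 0.40, 0.47 and 0.18 (all probes), 0.13, 0.37 and -0.23 (none) and 0.21, 0.22 and 0.09 (quantile), against 0.03, 0.12 and -0.02. Calls at 6 Gy numbered 177 with scaling over all probes, 127 with quantile normalization and 0 with no scaling. Quantile normalization gives the top-ranked probe of each array the same value, so by construction it removes differences of the brightest probe.

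Values that changed sign were these. With no scaling, at 10 Gy against 0 Gy: miR-1202 -0.11, miR-1225-5p -0.18, miR-4281 -0.0761 and miR-762 -0.0759, and the slopes per Gy -0.0127, -0.0181, -0.0103 and -0.00878. After quantile normalization: miR-1225-5p -0.0787, -0.063 and -0.11, and miR-762 -0.0237, -0.0978 and -0.0237, at 2, 6 and 10 Gy, with slopes of -0.00844 and -0.00369, and at 10 against 6 Gy miR-1207-5p 0.0465 and miR-762 0.0741. With the spike-in covariate at 10 against 6 Gy: miR-1202 0.12 and miR-1207-5p 0.13. With slide as a block, added after seeing the data, slopes of miR-1202, miR-1225-5p and miR-4281 were -0.00942, -0.0168 and -0.0181. The slope of miR-1225-5p was -0.000593 with normexp and -0.000309 with the 5 left out of the scaling. At 10 against 6 Gy miR-762 was 0.0353 by its brightest probe and 0.00849 by total gene signal. With 1 array left out, ranges that crossed 0 were -0.00228 to 0.018 for the slope of miR-1202, -0.00452 to 0.0102 for that of miR-1225-5p, -0.0025 to 0.024 for that of miR-4281, -0.00691 to 0.163 for miR-1225-5p at 10 against 0 Gy and -0.112 to 0.000278 for miR-762 at 10 against 6 Gy.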
